A study of Homo sapiens with 42 samples.

Results

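The cytoplasm of A375 cells, a human melanoma line, was profiled by small RNA sequencing in confluent and subconfluent culture, in 3 libraries of confluent and 3 libraries of subconfluent cells out of 42 libraries in the series. These 6 libraries were taken by their sample names, and the comparison was described across the 2657 mature miRNA entries of the count table, of which 2081 had at least 1 count in the 6 libraries and 265 had enough counts to be tested. The series also holds the nuclear fraction of A375 cells, both fractions of HEK293 (embryonic kidney) and SHSY5Y (neuroblastoma) cells, and immunoprecipitates (IP) of the Argonaute proteins AGO1-4 from HEK293 cells, all in confluent and subconfluent culture. All A375 libraries came from cells given as wild type and untreated, grown in DMEM with fetal bovine serum. The libraries differed in confluency, in the fraction taken and in their 3′ adapter. Nothing in the labels says that the 3 libraries of a group came from separate cultures, so every p-value measures the spread between these libraries, which may be technical.

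miRNAs are short RNAs cut from hairpin transcripts by DROSHA in the nucleus and DICER in the cytoplasm. An Argonaute protein carries the mature strand, and bases 2 to 8 of that strand, the seed, pair with target mRNAs and lead to their repression. A hairpin gives a 5p and a 3p strand, of which the less abundant one is usually degraded. Entries of the miRNA registry differ in how well they are supported, and some short GC-rich entries have the sequence of ribosomal, transfer or small nuclear RNA.

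The mature sequences to which the results turn most often are shown here, from RefSeq on GRCh38.p14, with the seed in capitals. The first 3 belong to large falls in confluent cells, the following pair shares a seed and moved in opposite directions, and miR-4284 and miR-210-3p rose.

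miR-6790-3p: cGACCUCGgcgaccccucacu
miR-491-3p: cUUAUGCAagauucccuucuac
miR-127-3p: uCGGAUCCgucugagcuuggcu
miR-1909-3p: cGCAGGGGccgggugcucaccg
miR-6722-3p: uGCAGGGGucgggugggccagg
miR-4284: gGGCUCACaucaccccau
miR-210-3p: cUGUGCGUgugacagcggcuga

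The next set holds the 2 arms of the MIR4687 hairpin, which moved in opposite directions, and 2 pairs of entries whose sequences differ by no more than 1 mismatch when aligned and which therefore may share reads.

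miR-4687-5p: cAGCCCUCcucccgcacccaaa
miR-4687-3p: uGGCUGUUggagggggcaggc
miR-27a-3p: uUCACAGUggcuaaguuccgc
miR-27b-3p: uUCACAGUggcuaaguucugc
miR-4454: gGAUCCGAgucacggcacca
miR-7975: aUCCUAGUcacggcacca

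The confluent cytoplasmic libraries held 32642, 30960 and 20802 counts, against 13798, 21677 and 18991 in the subconfluent libraries. The tested entries held 93.3% ± 0.649 of the counts of confluent libraries and 89.6% ± 0.75 of those of subconfluent libraries (SD, n = 3 each). Replicates did not agree within sampling noise, with a chi-square per degree of freedom of 3.38 to 8.60 for the 6 pairs within a group, and no library was a copy of another. The first principal component of log2 CPM (counts scaled to equal library sizes) held 71.5% of the variance and placed the confluent libraries apart from the subconfluent ones.

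Of 10 melanocyte and melanoma miRNAs, 7 had a count in confluent and 6 in subconfluent A375 cytoplasm. As a CPM of the library totals, the summed level of 10 melanocyte and melanoma miRNAs ran from 79780 to 115662 CPM in confluent and from 70244 to 104996 CPM in subconfluent A375 cytoplasm, against 3722 to 4491 CPM in HEK293 cytoplasm over both densities and 7814 to 26779 CPM in SHSY5Y cytoplasm. The sum rested on miR-221-3p, miR-222-3p, miR-21-5p and miR-146a-5p. miR-211-5p, the intronic miRNA of the melanocyte gene TRPM1, had 0 of 138870 counts in the 6 libraries, which allows up to 21.6 CPM, and so had miR-509-3p and miR-514a-3p. In confluent and subconfluent libraries miR-508-3p had 1 and 0 counts, miR-204-5p had 26 and 2 counts, and miR-137-3p had 10 and 5 counts. Of the markers of other cells, 8 neural miRNAs summed to 6105 to 10013 CPM in confluent and 4204 to 9042 CPM in subconfluent libraries, and 14 blood, endothelial, liver and mesenchymal miRNAs to 433 to 743 and 290 to 948 CPM. The neural sum rested mostly on miR-7-5p, at 3509 to 8043 and 3189 to 7289 CPM. It was 8000 to 12732.5 CPM in HEK293 cytoplasm over both densities. In SHSY5Y cytoplasm it was 5094 to 6539 CPM in confluent and 18184 to 20193 CPM in subconfluent libraries. The sums of 2 lists did not overlap between the groups. They were those of 16 chromosome 19 and pluripotency miRNAs, at 96.1 to 153 CPM in confluent and 362 to 923 CPM in subconfluent libraries, with 10 and 9 entries at 0, where miR-372-3p alone held 2 counts in confluent and 31 counts in subconfluent libraries, and of 7 snoRNA-derived entries, a sign of nuclear RNA, at 161 to 481 and 600 to 652 CPM, with 3 and 0 entries at 0. The 7 snoRNA-derived entries summed to 650 to 955 CPM in confluent and 261 to 729 CPM in subconfluent A375 nuclei. For these entries the subconfluent cytoplasm thus lay within the range of the subconfluent nuclei. The part of both lists in the results below was not tested.

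A naming conflict precedes every result. A table of group means that came with the study gives the values of the deposited confluent nuclei under the name of subconfluent A375 cytoplasm, and those of the deposited subconfluent cytoplasm under the name of confluent A375 nuclei. The deposited table itself names fractions in its first line, which matched the sample names in 42 of 42 libraries, where the IP libraries match by naming neither fraction. These names were used. Both labels come from the same deposit, so their match cannot decide which naming is right. Under the other names confluent A375 cytoplasm had 12 entries higher and 21 lower, 10 of the 75 calls described next stayed in the same direction, and 5 of the 38 rises were called lower, among them miR-4508 (log2 fold change -1.37, adjusted p = 0.027 in edgeR's test). Each A375 library also carries its own 3′ adapter, so adapter and confluency cannot be told apart within the line.

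In confluent A375 cytoplasm 38 of 265 tested entries rose and 37 fell relative to subconfluent cytoplasm, which is 28.3% of the tested entries in either direction, 14.3% higher and 14.0% lower (edgeR's quasi-likelihood test, adjusted p under 0.05). Fewer cells with an RNA and less of that RNA per cell cannot be told apart in such bulk libraries. The median log2 fold change over all tested entries was -0.00. Among the called entries the median was 2.0 for those that rose and -2.80 for those that fell, and 24 of the falls and 19 of the rises were larger than 2 on the log2 scale. Some falls reached the count filter only through the 3 subconfluent libraries, so the filter had a part in which large falls are counted. Among the largest these were miR-127-3p, miR-6165, miR-7843-3p, miR-6722-3p, miR-1915-3p, miR-491-3p, miR-6769a-3p and miR-139-3p. The rise of miR-100-3p in turn reached the filter only through the 3 confluent libraries. The 3 confluent and the 3 subconfluent libraries did not overlap in CPM for 72 of the 75 called entries, against 44.9% of all tested entries, and the exceptions, chosen after their values were seen, were miR-4707-5p, miR-5100 and miR-3613-3p. With counts scaled by library totals instead of TMM the median shifted to 0.15 and the calls to 49 higher and 31 lower. Leaving out a library left 20 to 31 higher and 17 to 30 lower, with the fewest rises without subconfluent replicate 2 (20 higher and 21 lower) and the fewest falls without subconfluent replicate 3 (24 higher and 17 lower), and 22 falls were left without subconfluent replicate 1. Of the 37 falls, 27, 27 and 26 still reached the count filter without subconfluent replicates 1, 2 and 3, while all 38 rises did. Part of the lost falls were therefore not tested again. Without confluent replicate 1, 2 or 3, 37 of the 38 rises were tested. The 38 entries that rose made 14.1% ± 1.47 of the counts of confluent libraries and 4.49% ± 0.437 of those of subconfluent libraries, and the 37 that fell made 6.43% ± 0.669 and 19.1% ± 3.42 (SD, n = 3 each), as a description of entries chosen by these values.

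**Figure D1:**
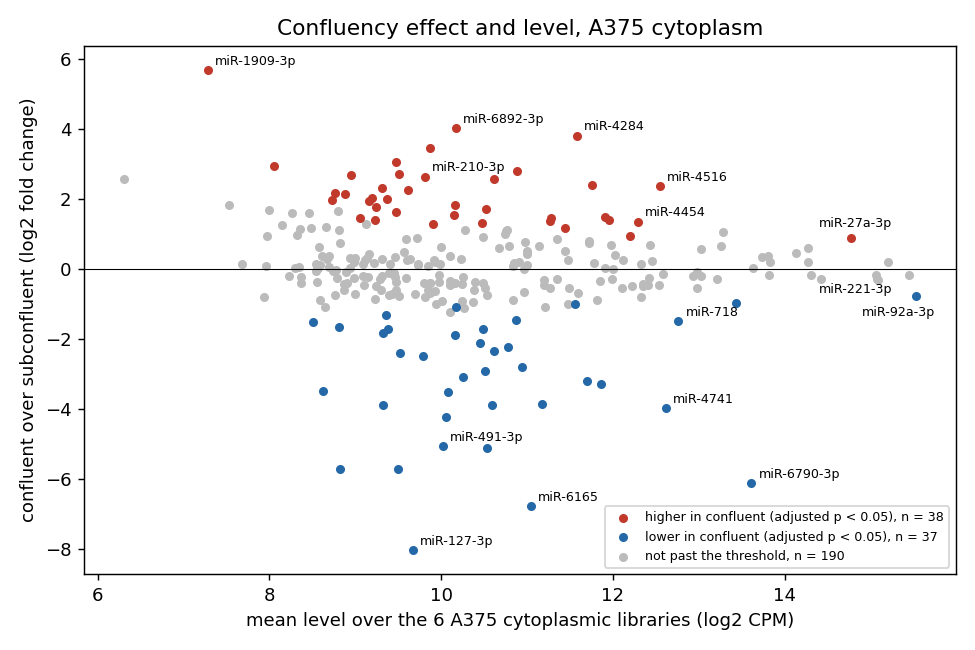
Each point is 1 of the 265 tested entries, with its mean level over the 6 A375 cytoplasmic libraries (log2 CPM, horizontal) and its fitted log2 fold change of confluent over subconfluent cells (vertical). The 38 red points rose and the 37 blue points fell at an adjusted p under 0.05; the falls reach further from 0 than the rises at levels above 10 on the log2 CPM scale, with miR-6790-3p and miR-4741 the most abundant of the large falls.

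The called entries were mostly not those found with Argonaute. Of the 150 tested entries detected in the AGO1-4 IP (at least 10 counts in at least 3 of its 6 libraries), 14 rose and 8 fell, which is 14.7%, and of the 115 entries not detected there 24 rose and 29 fell, which is 46.1%. The IP came from HEK293 cells, so an entry particular to A375 can be missing from it. The summed share of all 2120 entries not detected in the IP was 21.1%, 22.8% and 18.5% of the counts in confluent libraries, against 33.0%, 19.8% and 31.2% in subconfluent libraries. The groups overlapped, because subconfluent replicate 2 lay within the confluent range, and the difference did not pass (exact permutation test, two-sided p = 0.3, where 0.1 is the smallest p that 3 against 3 libraries allow).

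miR-6790-3p had the smallest adjusted p of all tested entries. It held 288, 398 and 360 CPM in confluent libraries, against 33853, 8811 and 31280 CPM in subconfluent libraries, and was 2.39% ± 1.29 of all counts there and 0.0381% ± 0.00730 in confluent cells (SD, n = 3 each). The groups were far apart, although subconfluent replicate 2 was well below the other subconfluent libraries. The log2 difference was -6.12 ± 0.52 (SE) at an adjusted p of 4.0e-10. Its hairpin (chr19:6392921-6392983, minus strand) lies in an intron of GTF2F1, a subunit gene of the general transcription factor TFIIF, and it had 0 counts in the IP.

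miR-127-3p was seen in the subconfluent libraries alone. It had 0, 0 and 0 counts in confluent libraries, against 18, 35 and 36 counts in subconfluent libraries, and was at least 50.8-fold lower in confluent cells, taking 3 counts over the confluent libraries as the limit. Its hairpin (chr14:100882979-100883075, plus strand) is part of the imprinted 14q32 cluster, within MIR493HG and antisense to RTL1. miR-6165, from an intron of the nerve growth factor receptor gene NGFR (chr17:49510817-49510900), had 0, 3 and 0 counts in confluent libraries and 50, 113 and 68 counts in subconfluent libraries. The summed counts of miR-6165 were 132-fold lower in confluent cells (95% interval 44.6 to 644, exact, counting error only). The gap between the groups was required of both entries. A read made by PCR is not an independent molecule, so such intervals cover counting error only. miR-7843-3p (1, 0 and 0 counts against 12, 20 and 16) and miR-6722-3p (2, 0 and 0 against 13, 42 and 26) were likewise near the limit in confluent libraries, 82.2-fold (14.1 to 3313) and 69.4-fold (18.6 to 582) lower.

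miR-491-3p was the largest fall among the entries detected in the IP, with 559 counts there. It held 57.6, 56.9 and 45.0 CPM in confluent libraries, against 2764, 1581 and 1717 CPM in subconfluent libraries, a log2 difference of -5.05 ± 0.57 (SE) at an adjusted p of 4.0e-08. These levels rest on 1 or 2 counts in each confluent library, and the entry reached the count filter only through the subconfluent libraries. The hairpin (chr9:20716105-20716188, plus strand) lies in an intron of FOCAD.

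Among the other large falls, which were chosen to have no overlap between the groups, the abundant miR-4741 held 518, 995 and 720 CPM in confluent libraries, against 14969, 6732 and 13789 CPM in subconfluent libraries, and fell by 3.97 on the log2 scale (standard error 0.45, adjusted p = 3.9e-08). miR-6869-5p had 345, 228 and 315 CPM in confluent libraries, against 4222, 4292 and 4453 CPM in subconfluent libraries, where the 3 libraries lay close together, and fell by 3.85 (standard error 0.43). Its hairpin overlaps an exon of FKBP1A, the gene of a protein that binds the drug FK506, and that of miR-4741 an exon of RBBP8, a gene of DNA end resection. The log2 fold changes were -5.12 for miR-1915-3p, -4.23 for miR-6769a-3p, -3.89 for miR-4687-3p and -3.87 for miR-139-3p, with standard errors of 0.55 to 0.70. miR-6769a-3p was the most variable of these, with 57.6, 114 and 135 CPM in confluent libraries, against 3761, 542 and 1771 CPM in subconfluent libraries. miR-1915-3p, miR-6769a-3p and miR-139-3p reached the count filter only through the subconfluent libraries.

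Of the rises, miR-1909-3p had 4, 21 and 5 counts in confluent libraries and 0, 0 and 0 counts in subconfluent libraries, which makes it at least 5.84-fold higher in confluent cells. It has the seed of miR-6722-3p, which fell, and its hairpin overlaps an exon of REXO1 (chr19:1816159-1816238, minus strand). miR-6892-3p held 3252, 1905 and 1396 CPM in confluent libraries, against 76.8, 90.4 and 215 CPM in subconfluent libraries, a log2 difference of 4.02 ± 0.57 (SE) at an adjusted p of 2.3e-06. Its hairpin lies in an intron of ZYX, the gene of zyxin, a focal adhesion protein (chr7:143382686-143382800, plus strand).

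miR-4284 was the most abundant of the rises above 3 on the log2 scale. It held 6705, 6996 and 3376 CPM in confluent libraries, against 691, 407 and 161 CPM in subconfluent libraries, a log2 difference of 3.81 ± 0.50 (SE) at an adjusted p of 6.6e-07. Confluent replicate 3 was below the other confluent libraries and still above every subconfluent one. The 18 bases of miR-4284 are also found exactly in TRNF, the mitochondrial transfer RNA of phenylalanine, and it had 0 counts in the IP.

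miR-210-3p, the miRNA that HIF induces when oxygen is low, was the largest rise among the entries detected in the IP. It held 1065, 1394 and 2206 CPM in confluent libraries, against 230, 226 and 268 CPM in subconfluent libraries, from 37, 49 and 49 counts against 3, 5 and 5. The log2 fold change of 2.64 passed in each of 15 alternative fits with the deposited names. miR-100-3p, the minor arm of the miR-100 hairpin in MIR100HG, held 1496, 1194 and 1125 CPM in confluent libraries, against 230, 181 and 161 CPM in subconfluent libraries, a log2 difference of 2.73 ± 0.50 (SE) at an adjusted p of 8.3e-05. This entry reached the count filter only through the confluent libraries.

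The remaining rises of this size were entries not detected in the IP. miR-4508 and miR-4492 rose by 3.47 and 3.06 on the log2 scale, miR-4800-3p by 2.80, miR-6891-3p by 2.67, miR-3191-3p by 2.56 and miR-10401-3p by 2.41, with standard errors of 0.44 to 0.60. The hairpin of miR-6891-3p overlaps an exon of HLA-B, that of miR-3191-3p one of BBC3, the gene of the pro-apoptotic protein PUMA, and that of miR-4800-3p one of MXD4. miR-6765-5p, with 20, 14 and 10 counts in confluent libraries and 1, 1 and 1 in subconfluent libraries, was 8.56-fold higher in confluent cells by its summed counts (95% interval 2.75 to 43.1, counting error only), and its call was lost without subconfluent replicate 2 (adjusted p = 0.065).

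**Figure D2:**
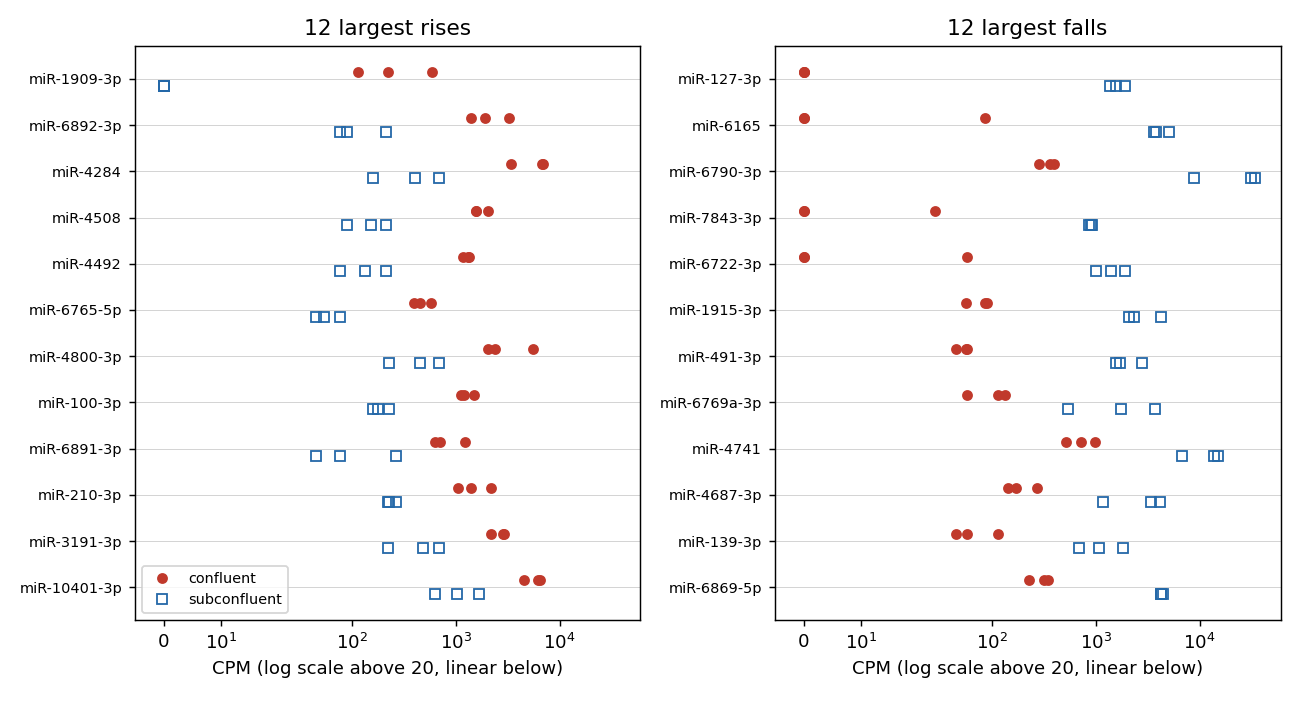
CPM of each of the 3 confluent (red circles) and 3 subconfluent (blue squares) A375 cytoplasmic libraries for the 12 largest rises (left) and the 12 largest falls (right) among entries that passed, averaged at least 100 CPM and did not overlap between the groups, on an axis that is logarithmic above 20 and linear below. The gap between the groups was required of these entries and is shown for its width; miR-1909-3p is at 0 in the subconfluent libraries and miR-127-3p at 0 in the confluent ones.

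Among the entries detected in the IP, the 14 that rose were miR-210-3p, miR-4687-5p, miR-424-5p, miR-9-5p, miR-1260a, miR-140-5p, miR-101-3p, miR-1260b, miR-4454, miR-19b-1-5p, miR-96-5p, miR-183-5p, miR-27b-3p and miR-27a-3p, and the 8 that fell were miR-491-3p, miR-483-3p, miR-940, miR-132-3p, miR-3613-3p, miR-18a-3p, miR-222-3p and miR-92a-3p. miR-483-3p, from within the growth factor gene IGF2, held 403, 284 and 315 CPM in confluent libraries, against 3378, 2033 and 2361 CPM in subconfluent libraries, a log2 difference of -2.92 ± 0.47 (SE) at an adjusted p of 1.5e-05. miR-140-5p, a miRNA of cartilage encoded in WWP2, held 4317, 2531 and 4097 CPM in confluent libraries and 1151, 1084 and 1717 CPM in subconfluent libraries, and rose by 1.46 on the log2 scale (standard error 0.47, adjusted p = 0.018). Neither entry overlapped between the groups. miR-132-3p fell by 1.71 (standard error 0.49), with 374, 199 and 360 CPM in confluent libraries and 921, 904 and 1234 CPM in subconfluent libraries. Several of the listed calls were weak in alternative fits with the deposited names. Among them, miR-18a-3p was lost in 10 of 14, miR-101-3p in 7 of 13, miR-19b-1-5p in 6 of 14 and miR-3613-3p in 6 of 15.

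Of the 8 most abundant entries, 1 rose and 1 fell, a share near the 28.3% called over all tested entries, and both changes were under 1 on the log2 scale. miR-221-3p made 4.55% ± 0.638 of the counts of confluent libraries, where it ranked first, and 4.68% ± 0.926 of those of subconfluent libraries, and miR-19b-3p made 4.40% ± 0.301 and 3.46% ± 0.676 (SD, n = 3 each). miR-92a-3p, made from MIR17HG, ranked first in subconfluent libraries, with 69088, 54897 and 54137 CPM, and held 43053, 25908 and 36240 CPM in confluent libraries. It fell by 0.76 on the log2 scale (standard error 0.28, adjusted p = 0.038), and this call was lost in 5 of the 6 fits that leave out a library, without confluent replicates 2 and 3 and without each subconfluent replicate (adjusted p up to 0.15). miR-27a-3p held 32376, 46071 and 30838 CPM in confluent libraries, against 19114, 25438 and 14165 CPM in subconfluent libraries, and rose by 0.90 (standard error 0.32, adjusted p = 0.038), a call lost without confluent replicate 2 and without subconfluent replicates 1 and 3 (adjusted p up to 0.23). miR-125b-5p (log2 fold change -0.32), miR-100-5p (-0.28), miR-23b-3p (-0.15), miR-23a-3p (-0.28), miR-221-3p (-0.18) and miR-19b-3p (0.20) did not pass, and without the count filter miR-125b-5p, miR-100-5p, miR-23b-3p, miR-23a-3p and miR-221-3p turned positive.

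Members of a cluster were not all called together. Over all tested entries 14.3% rose and 14.0% fell, and clusters of so few members allow only coarse shares beside these. Of the miR-23/27/24 clusters, 2 of 5 members rose, the near-identical miR-27a-3p and miR-27b-3p. The list's median log2 fold change was -0.15, with miR-23a-3p, miR-23b-3p and miR-24-3p at -0.28, -0.15 and -0.15. miR-27b-3p held 6159, 7138 and 5357 CPM in confluent libraries and 3147, 4157 and 2361 CPM in subconfluent libraries, and its call was lost in 5 of 6 fits that leave out a library, all but the one without subconfluent replicate 2. Of the cluster of miR-183, miR-96 and miR-182, known from sensory organs, miR-183-5p and miR-96-5p rose by 1.18 and 1.30 (standard errors 0.42 and 0.45), and miR-182-5p had a log2 fold change of 0.61 (adjusted p = 0.32). miR-96-5p held 1381, 1507 and 1216 CPM in confluent libraries, against 461, 497 and 698 CPM in subconfluent libraries, but was called in 1 of 6 fits that leave out a library, the one without confluent replicate 3. miR-183-5p was lost without confluent replicate 2 and without subconfluent replicates 2 and 3 (adjusted p up to 0.20).

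Of the cluster of miR-221 and miR-222, which restrains the cell cycle inhibitor p27, miR-222-3p fell by 0.97 on the log2 scale (standard error 0.32, adjusted p = 0.022), while miR-221-3p, with the same seed, did not pass. miR-222-3p held 7425, 7366 and 7743 CPM in confluent libraries, against 11975, 18163 and 13896 CPM in subconfluent libraries, and its call was lost without confluent replicates 1 and 3 and without subconfluent replicates 2 and 3 (adjusted p up to 0.099). The difference between the 2 members was not tested. Of the miR-15/16 family, which targets cyclins, miR-424-5p rose, with 1813, 2360 and 1261 CPM in confluent libraries and 154, 904 and 376 CPM in subconfluent libraries, while miR-15a-5p, miR-15b-5p and miR-16-5p had log2 fold changes of 0.75, -0.46 and 0.21 and did not pass. The miR-424-5p call was lost without confluent replicate 2 and without subconfluent replicates 1 and 3 (adjusted p up to 0.085).

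The tumour-suppressive let-7 family had 0 of 9 members called, beside 28.3% of all tested entries. Its median log2 fold change was 0.21 beside -0.00 over all tested entries, and let-7f-5p was nearest to the threshold, at 0.81 (adjusted p = 0.10). No call was made among the tested members of the miR-29 (3), miR-30 (4), miR-99/100 and miR-125 (5), HOX-cluster (5), miR-130, miR-301 and miR-454 (3), miR-193 and miR-365 (5) and Microprocessor-independent (3) lists, whose medians lay between -0.49 and 0.52, nor among miR-181 (2) and miR-34 and miR-449 (1). The miR-200 family, the mirtron list and the chromosome 19 list had no member with enough counts. Among miR-17/92 and its paralogous clusters, 9 members were tested and miR-92a-3p alone passed, again beside 28.3% of all tested entries. The list's median was 0.17.

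Of the melanocyte and melanoma list, 1 of 5 tested members passed, miR-222-3p, beside 28.3% of all tested entries. The same share stands beside the neural and DLK1-DIO3 lists below, whose 3 tested members each allow only coarse shares. miR-146a-5p, a brake on NF-kB signalling, held 8317, 5972 and 26111 CPM in confluent libraries, against 7293, 7500 and 4346 CPM in subconfluent libraries. The groups overlapped, since confluent replicate 2 lay below 2 of the subconfluent libraries, and it did not pass (adjusted p = 0.061). miR-21-5p, a miRNA that many tumours carry at a high level, overlapped as well, with a log2 fold change of 0.61 (adjusted p = 0.24). Of 3 neural miRNAs, miR-9-5p rose, with 863, 768 and 1216 CPM in confluent libraries and 154, 361 and 268 CPM in subconfluent libraries, and its call was lost without subconfluent replicate 1 or 3 (adjusted p up to 0.073). Of 3 tested members of the DLK1-DIO3 cluster at 14q32, miR-127-3p and miR-369-3p fell and miR-370-3p had a log2 fold change of 0.15. miR-369-3p held 1727, 2389 and 1936 CPM in confluent libraries and 3608, 4247 and 4185 CPM in subconfluent libraries, a log2 difference of -0.99 ± 0.35 (SE) at an adjusted p of 0.032, lost without confluent replicates 1 and 3 and without subconfluent replicates 2 and 3.

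**Figure D3:**
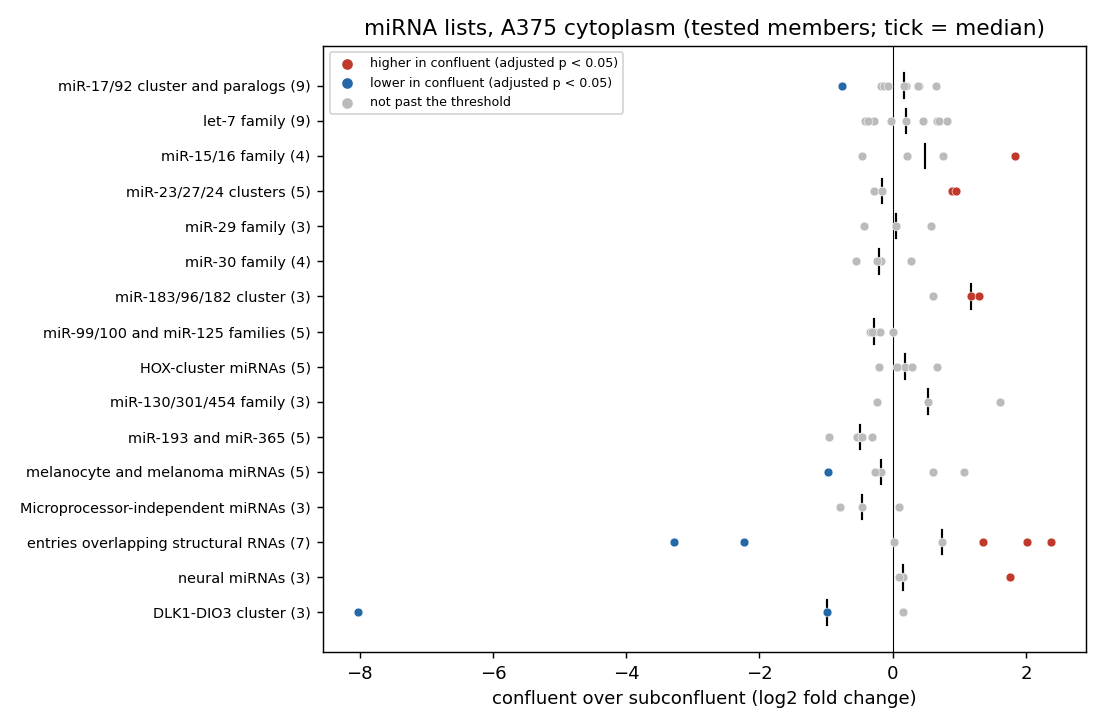
Log2 fold changes of confluent over subconfluent A375 cytoplasm for the tested members of the 16 lists with at least 3 of them (number of members in brackets); black ticks are list medians and colours mark adjusted p under 0.05. Members of the let-7 family and of the miR-17/92 cluster lie around 0, whereas the entries that overlap structural RNAs reach from -3.28 to 2.37.

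Entries whose sequence matched a structural RNA gene moved in both directions. Both strands of each gene were searched, so a match need not lie on the strand of the RNA. Of 240 tested entries with a mature sequence, 18 matched a ribosomal, transfer or small nuclear RNA gene with at most 1 mismatch, and 6 of these rose and 4 fell, beside 14.3% higher and 14.0% lower over all tested entries. Of 8 entries that matched transfer RNA, 4 rose and 0 fell (median log2 fold change 0.68 beside -0.00 over all tested entries): miR-4284, miR-1260a, miR-4454 and miR-7975. miR-4454 and miR-7975 both match histidine transfer RNA, so their reads may be shared, and rose by 1.35 and 2.02 (standard errors 0.41 and 0.50). miR-4454 held 6245, 7536 and 7698 CPM in confluent libraries, against 4759, 949 and 2844 CPM in subconfluent libraries, and its call was lost without subconfluent replicate 2 or 3 (adjusted p up to 0.076).

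Of 8 entries that matched ribosomal RNA, 2 rose and 2 fell, beside 14.3% higher and 14.0% lower over all tested entries. miR-4516, found exactly in 28S ribosomal RNA, held 8518, 10864 and 10669 CPM in confluent libraries, against 2456, 1762 and 1610 CPM in subconfluent libraries, and miR-4492, also found in the 28S genes, rose with it. miR-663a, found in the 45S precursor, and miR-4485-3p, found in the mitochondrial ribosomal RNA gene RNR2, fell by 2.80 and 2.23 on the log2 scale (standard errors 0.50 and 0.43). Both entries that matched small nuclear RNA fell, miR-1246 and miR-1290. miR-1246 held 806, 768 and 450 CPM in confluent libraries, against 15199, 2666 and 2522 CPM in subconfluent libraries, a log2 difference of -3.28 ± 0.55 (SE) at an adjusted p of 2.5e-05 that became -1.96 without subconfluent replicate 1. The part of fragments of these RNAs in the counts was not tested.

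The called entries were richer in G and C than the rest. The median GC content of the mature sequence was 64.3% for 34 entries that rose, 65.2% for 35 that fell and 50% for 171 that did not pass. The share of entries called was 27.6% of 29 entries under 40% GC, 12.5% of 56 entries from 40% to under 50%, and 48.3% of 29 entries at 80% or more, and from 70% upward 13 rose and 15 fell. An entry with an A or U rich sequence could rise as well, as miR-101-3p (33.3% GC) and miR-9-5p (34.8% GC) did. With the deposited names the miR-101-3p call was lost in 7 of 13 alternative fits and that of miR-9-5p in 2 of 14. With an offset for GC content in each library, 47 entries were higher and 32 lower of 240.

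**Figure D4:**
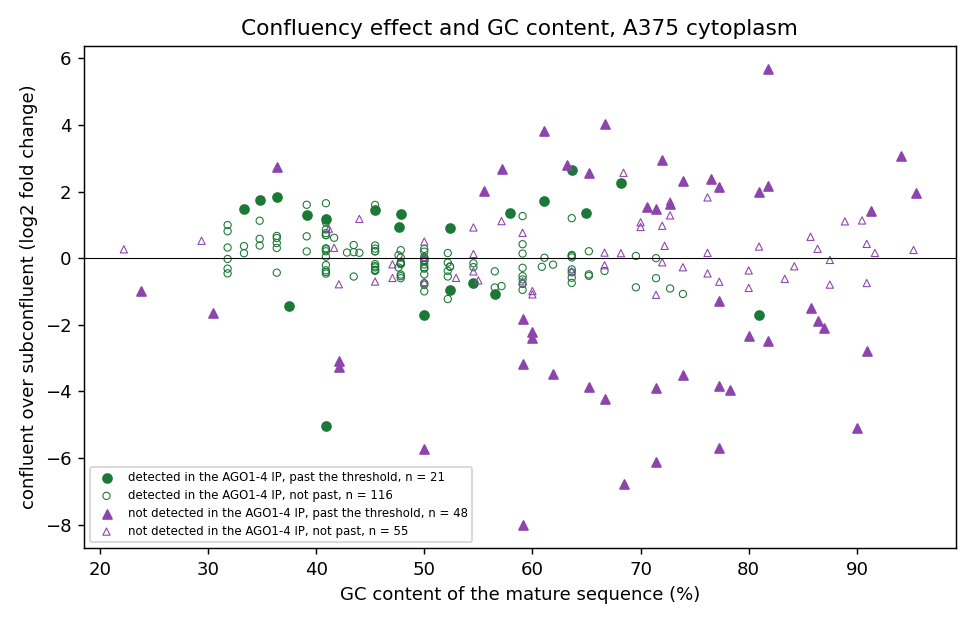
GC content of the mature sequence (%, horizontal) against the log2 fold change of confluent over subconfluent A375 cytoplasm (vertical) for the 240 tested entries with a sequence; circles were detected in the AGO1-4 IP and triangles were not, and filled symbols passed an adjusted p of 0.05. Filled triangles spread over both directions above about 55% GC, and most open circles lie between -1 and 1.

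Few hairpins had both arms called. Both arms were tested for 37 hairpins, of which 0 had both arms called in the same direction, 10 had only 1 arm called and 1 had its arms called in opposite directions. In the other 26 no arm was called, beside 28.3% of all tested entries called, so 0 says little about whether arms move together. Among the 10, the log2 fold changes of the arms had the same sign for MIR27A, MIR27B, MIR92A1, MIR19B1 and MIR3180-2, and opposite signs for the rest. The hairpin with opposite calls was MIR4687, which overlaps an exon of the calcium sensor gene STIM1 (chr11:3856062-3856141, plus strand). miR-4687-5p held 1612, 967 and 1306 CPM in confluent libraries, against 384, 226 and 215 CPM in subconfluent libraries, and rose by 2.26 on the log2 scale (standard error 0.49, adjusted p = 6.8e-04). miR-4687-3p held 144, 171 and 270 CPM in confluent libraries, against 3378, 1175 and 4131 CPM in subconfluent libraries, and fell by 3.89 (standard error 0.68, adjusted p = 4.8e-05). The more abundant arm was thus 5p in every confluent library and 3p in every subconfluent one. For miR-100 the minor 3p arm rose by 2.73 and the abundant 5p arm had a log2 fold change of -0.28. For miR-139 the 3p arm fell by 3.87 and the 5p arm was at 0.15. These differences between arms were not tested.

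In A375 nuclei, the confluency effect was tested against that of the cytoplasm, and the difference between the fractions passed for 39 of 265 entries, or 14.7%, 6 with a more positive effect in the cytoplasm and 33 with a more negative one. The labels do not say whether the 2 fractions came from the same cultures, and this test did not pair them. With a block for the replicate number the counts were 6 and 33 as well. The 37 entries that fell in the cytoplasm held 20 of the 39, and 3 of the 38 that rose were among them, with signs that the choice by the cytoplasmic effect largely sets. Of the 38 cytoplasmic rises, 19 were also called higher in the nucleus, which is 50% of them and 38.0% of the 50 nuclear rises, beside 18.9% of all tested entries. Of the 37 cytoplasmic falls 4 were called lower in the nucleus, which is 10.8% of them and 25% of the 16 nuclear falls, beside 6.04% of all tested entries, and 5 were called higher there. The rises in both fractions included miR-210-3p (log2 fold change 2.64 in the cytoplasm and 1.69 in the nucleus), miR-4516 (2.37 and 1.95) and miR-3191-3p (2.56 and 2.36). The nuclear libraries of A375 held 14665 to 25828 counts in confluent and 9817 to 19178 counts in subconfluent cells.

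miR-4741 and miR-6869-5p fell in the cytoplasm and had nuclear log2 fold changes of 0.12 and 0.30, with differences of -4.09 (standard error 0.62) and -4.15 (standard error 0.63), each at an adjusted p of 2.3e-05. miR-6790-3p had 13, 4 and 13 counts in confluent nuclei and 14, 17 and 22 counts in subconfluent nuclei, and its effect was more negative in the cytoplasm by 4.82 (standard error 0.72, adjusted p = 2.3e-05). miR-483-3p fell in the cytoplasm and was called higher in confluent nuclei, at 1.72 (adjusted p = 0.028), with a difference of -4.64 (adjusted p = 3.2e-05). miR-663a, at -2.80 in the cytoplasm and 2.30 in the nucleus, and miR-718, at -1.49 and 2.09, differed too. In the other direction miR-4284 was more positive in the cytoplasm by 2.80 (standard error 0.66, adjusted p = 0.0036) and miR-101-3p by 2.73 (adjusted p = 0.016). The count of 6 positive differences became 2 without confluent cytoplasm replicate 2, 3 without confluent nucleus replicate 1 or subconfluent nucleus replicate 3, and 12 without confluent nucleus replicate 3, and the count of 33 negative ones became 19 without confluent nucleus replicate 1. With GC offsets 11 differences were positive and 15 negative of 240 tested, and with at least 30 counts in 3 libraries 3 and 19 of 133. Among the 150 tested entries detected in the IP alone, scaled to each other, 0 differences were positive and 2 negative.

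**Figure D5:**
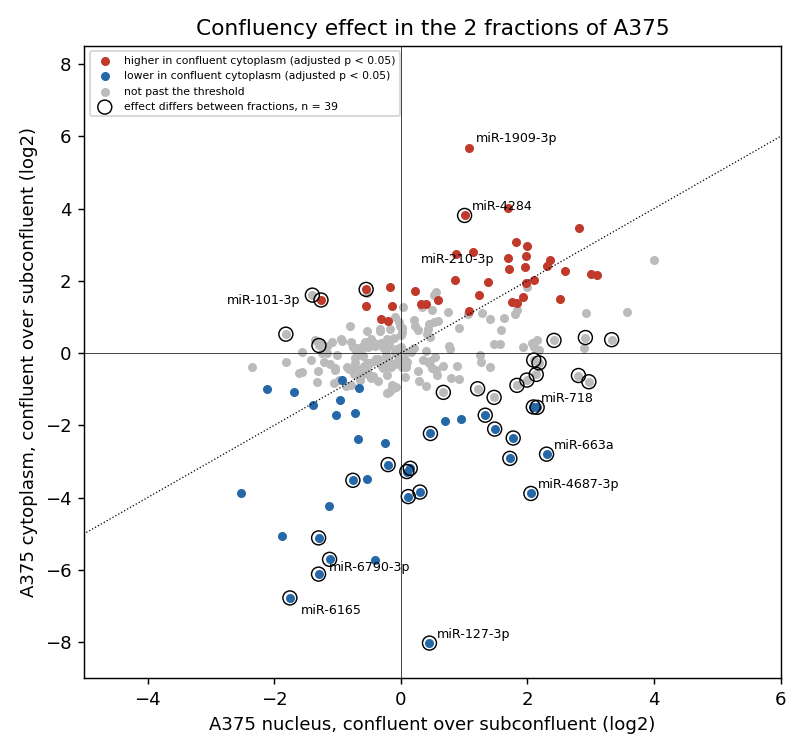
Log2 fold change of confluent over subconfluent cells in A375 cytoplasm (vertical) against that in A375 nuclei (horizontal) for the 265 tested entries; red and blue mark the 38 rises and 37 falls in the cytoplasm, black rings the 39 entries whose effect differs between the fractions, and the dotted line marks equal effects. Most rings lie below the dotted line, and 20 of them are around blue points.

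The confluency effect of A375 cytoplasm also differed from that of the other lines, in a fit over the 18 cytoplasmic libraries in which libraries at the same position carry the same adapters in every line. The difference passed for 56 of 459 entries, or 12.2%, against HEK293 and for 134 of 459, or 29.2%, against SHSY5Y. Of the 38 A375 rises, 16 differed from HEK293 and 20 from SHSY5Y, all with a more positive effect in A375, and of the 37 falls 13 and 23 differed, all with a more negative effect in A375 except miR-1343-5p against HEK293 (difference 1.86, adjusted p = 0.015, named after its values were seen). Against HEK293, 38 differences were positive and 18 negative, and these became 25 positive without HEK293 subconfluent replicate 3 and 11 negative without A375 confluent replicate 2 or HEK293 confluent replicate 2. The entries were chosen by the A375 effect, which is a term of every difference, so the signs of these differences are largely set by that choice. Both comparisons share the A375 libraries, and the A375 effect in this fit is scaled over all 18 libraries, so differences need not equal those of the values above. SHSY5Y cells were grown in RPMI medium, and A375 and HEK293 cells in DMEM, so medium and line cannot be told apart against SHSY5Y. The fraction libraries of each line also formed a pool of their own, so pool and line cannot be told apart either.

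miR-491-3p differed in both comparisons, with log2 fold changes of 0.83 in HEK293 and -0.95 in SHSY5Y and differences of -5.67 (adjusted p = 6.0e-09) and -3.89 (adjusted p = 1.3e-04). miR-6790-3p, with -4.22 in HEK293, differed by -1.60 there (adjusted p = 0.045, lost in 9 of 16 alternatives), and with 0.01 in SHSY5Y it differed by -5.83 (adjusted p = 8.5e-07). miR-127-3p had -6.01 in HEK293, where the difference of -2.72 did not pass (adjusted p = 0.44), and 0.27 in SHSY5Y, where it did. miR-210-3p had 1.25 in HEK293, with a difference of 1.64 (adjusted p = 0.057), and 0.15 in SHSY5Y, with a difference of 2.74 (adjusted p = 5.6e-04). Several IP-detected rises of A375 had negative log2 fold changes in SHSY5Y, among them miR-27a-3p (-1.60, difference 2.74), miR-96-5p (-2.36, difference 3.91), miR-9-5p (-1.74, difference 3.72) and miR-424-5p (-1.68, difference 3.72), each with an adjusted p of at most 2.7e-05 for the difference. In HEK293 the same 4 had log2 fold changes of 0.89, -0.05, 1.00 and 1.22, and the difference passed for miR-96-5p (1.60, adjusted p = 0.014).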

How the data were processed

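Small RNA libraries of A375, HEK293 and SHSY5Y fractions and HEK293 AGO1-4 IP were used, 42 in all, grouped by their sample names. The deposited values are raw counts per mature miRNA entry that the authors made from reads aligned to hg38; the submitters' processing notes name Bowtie2 and bedtools, with no version. From these counts, edgeR 4.0.16 (R 4.3.3, limma 3.58.1) gave TMM-scaled CPM and quasi-likelihood tests with Benjamini-Hochberg adjustment at 0.05, for entries that reached 10 counts in 3 or more libraries. A single fit over the 12 A375 fraction libraries gave the cytoplasmic effect and its difference from the nucleus, and a fit over 18 cytoplasmic libraries gave the differences from the other lines. Standard errors are the log2 fold change over the square root of the F statistic. Fitted fold changes of entries at or near 0 counts depend on the prior count. The share of entries not detected in the IP was compared with an exact permutation test (scipy 1.17.1).

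Entries named are the 12 greatest rises and the 12 greatest falls that passed, averaged at least 100 CPM and did not overlap between groups, the 8 most abundant, and members of lists as examples; entries outside the rule were named for IP detection, structural RNA matches, arms or differences. The members and lists were chosen with earlier results of these data known. Structural matches were sought on both strands of 1905 RefSeq genes with at most 1 mismatch, with CCA added to the end of transfer RNA sequences. Mature sequences and hairpin positions are from RefSeq on GRCh38.p14. Scripts were tested on simulated data. Alternatives were DESeq2 1.42.0, library totals, no filter or at least 30 counts, a replicate block, a 3′ adapter block for the line differences, IP entries only, GC offsets, the 6 libraries alone, thinned counts, the names in the study's table of means, and leaving out each library.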

Additional observations from a re-analysis of the deposited data

Results flagged for a closer look

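The confluency effect of A375 cytoplasm was compared with that of A375 nuclei, HEK293 cytoplasm and SHSY5Y cytoplasm for 44 entries that the text describes. The difference in effect passed an adjusted p of 0.05 in 62 cases (edgeR's quasi-likelihood interaction test), 12 against A375 nuclei, 21 against HEK293 and 29 against SHSY5Y, and 8 entries had none. Over all tested entries the difference passed for 14.7%, 12.2% and 29.2%. Each value here is the log2 fold change of confluent over subconfluent cells in A375 cytoplasm minus that in the other fraction or line. These entries were mostly chosen for their change in A375 cytoplasm, which enters every difference, so the signs are not independent of that choice.

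Against A375 nuclei the effect was more positive in A375 cytoplasm for miR-4284 (2.80), miR-9-5p (2.31), and more negative for miR-127-3p (-8.48), miR-4687-3p (-5.94), miR-6165 (-5.03), miR-6790-3p (-4.82), miR-6722-3p (-4.58), miR-6869-5p (-4.15), miR-4741 (-4.09), miR-1915-3p (-3.82), miR-1246 (-3.37), miR-4485-3p (-2.69). All alternatives kept 7 of the 12, and the weakest were miR-6722-3p, lost in 10 of 14, and miR-9-5p, lost in 12 of 18. The differences of miR-6165 and miR-4687-3p were lost without confluent nucleus replicate 1, and the nuclear counts of miR-127-3p, miR-6165 and miR-6722-3p were at most 5 in any library.

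Against HEK293 cytoplasm the effect was more positive in A375 for miR-1909-3p (6.82), miR-6892-3p (5.39), miR-4800-3p (4.12), miR-6891-3p (3.86), miR-6765-5p (3.71), miR-7975 (3.63), miR-3191-3p (3.30), miR-4508 (3.17), miR-4284 (2.77), miR-4516 (2.52), miR-10401-3p (2.27), miR-4454 (1.97), miR-96-5p (1.60), and more negative for miR-491-3p (-5.67), miR-6769a-3p (-5.39), miR-6869-5p (-3.50), miR-1915-3p (-3.21), miR-4741 (-2.68), miR-4687-3p (-2.65), miR-6790-3p (-1.60), miR-92a-3p (-0.89). All alternatives kept 16 of the 21, and miR-6790-3p was lost in 9 of 16, miR-6765-5p in 6 of 16 and miR-92a-3p in 6 of 16. The differences of miR-4284 and miR-96-5p were each lost in 1 of 16, without HEK293 subconfluent replicate 2 and without HEK293 confluent replicate 3.

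Against SHSY5Y cytoplasm the effect was more positive in A375 for miR-100-3p (7.58), miR-1909-3p (4.82), miR-96-5p (3.91), miR-424-5p (3.72), miR-9-5p (3.72), miR-4284 (3.62), miR-6765-5p (2.95), miR-27a-3p (2.74), miR-210-3p (2.74), miR-4508 (2.55), miR-27b-3p (2.39), miR-4492 (2.08), miR-19b-3p (1.77), miR-10401-3p (1.75), miR-4516 (1.52), miR-3191-3p (1.38), miR-221-3p (0.96), and more negative for miR-127-3p (-9.0), miR-6722-3p (-6.72), miR-6790-3p (-5.83), miR-4741 (-5.74), miR-6769a-3p (-5.59), miR-1915-3p (-5.38), miR-6165 (-5.36), miR-139-3p (-4.60), miR-6869-5p (-4.11), miR-4687-3p (-3.96), miR-491-3p (-3.89), miR-4485-3p (-3.17). All alternatives kept 23 of the 29, and those lost in part were miR-3191-3p (6 of 16), miR-221-3p (5), miR-1909-3p (4), miR-6165 (2), miR-127-3p (1) and miR-6765-5p (1).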

How the results depend on the processing

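Of the alternatives to the count of 38 entries higher and 37 lower, DESeq2, library totals, the 6 cytoplasmic libraries alone and GC offsets stayed within 1.5 times for both directions. The count higher moved to 13 of 150 tested entries in the IP only and 23 of 179 with counts thinned to the smallest A375 library. The count lower moved to 61 of 2282 with no filter, 20 of 133 with at least 30 counts in 3 libraries and 9 of 150 in the IP entries. Of the main calls still tested, 13 of 14 rises and 8 of 8 falls were called again in the IP entries. These were 25 of 25 and 19 of 19 at 30 counts, 23 of 31 and 28 of 30 with thinned counts, and 36 of 38 and 24 of 37 with no filter. Under the names of the study's table of means the counts were 12 higher and 21 lower of 265. In the fit over the 18 cytoplasmic libraries, chosen after seeing the data, they were 81 higher and 63 lower of 459. Leaving out 1 library gave 20 to 31 higher and 17 to 30 lower. Without a subconfluent replicate only 26 or 27 of the 37 falls were still tested. For the difference from nuclei (6 positive, 33 negative of 265), the counts were 3 and 19 of 133 at 30 counts. They were 0 and 2 of 150 in the IP entries, 11 and 15 of 240 with GC offsets, and 2 to 12 and 19 to 33 with 1 library left out. Against HEK293 (38 and 18) they were 25 to 46 and 11 to 24 with 1 library left out, and against SHSY5Y (80 and 54) DESeq2 gave 52 positive and 66 negative.

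Under the table's names the log2 fold change turned to -1.16 for miR-1909-3p, -1.37 for miR-4508, -1.13 for miR-4492, -1.49 for miR-6765-5p, -0.88 for miR-6891-3p, -0.45 for miR-10401-3p, 0.48 for miR-491-3p, 0.71 for miR-6769a-3p and 0.93 for miR-139-3p. Of entries that did not pass, no filter gave 0.20 for miR-221-3p, 0.075 for miR-125b-5p, 0.11 for miR-100-5p, 0.22 for miR-23b-3p and 0.084 for miR-23a-3p, the 18-library fit 0.059 for miR-221-3p and 0.095 for miR-23b-3p, and leaving out 1 library -0.42 to 0.056 for miR-23b-3p. The cause was not tested. Over the 32 largest and most abundant entries, 428 values kept their direction and side of the threshold, 31 no longer passed and 17 turned.

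The replicate numbers did not pair the libraries: same-numbered confluent and subconfluent libraries correlated at -0.08, -0.03 and -0.13 in their deviations from the group means. With the replicate block 36 entries were higher and 36 lower. Entries of a few counts are limited by depth, as the totals of 13798 to 32642 counts allow no finer steps.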
